A study of Mus musculus with 11 samples.

Results

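Troponins and tropomyosins were followed as a set of 10 genes, 7 coding for troponin subunits and 3 for tropomyosins, chosen by gene symbol among the 21759 symbols of the array table. These genes were represented by 12 of the 28350 probe sets, and all 10 were bright enough to be tested. mRNA was measured by Affymetrix Mouse Gene ST arrays in the tibialis anterior (TA), a fast muscle of the lower leg, with a separate male mouse on each array. The groups were 3 wild-type C57/Bl10 mice, 4 untreated mdx mice (the C57/Bl10ScSn-Dmd mdx/J strain, which carries a mutation in the dystrophin gene and makes almost no dystrophin) and 4 mdx mice given 12.5 mg/kg Pip6e-PMO once by tail vein injection at 12 weeks of age. Pip6e-PMO is a peptide-conjugated antisense oligomer that makes muscle skip a Dmd exon so that a shortened dystrophin is produced. All animals were 14 weeks old at harvest, and the labels give no treatment for the other groups.

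Troponin is the calcium switch of the thin filament. Troponin C (Tnnc genes) binds calcium, troponin I (Tnni genes) inhibits the interaction of actin with myosin, and troponin T (Tnnt genes) anchors both to tropomyosin (Tpm genes), the coiled coil that lies along actin and covers the myosin binding sites at rest. Each subunit is made from separate genes in slow fibres (Tnnt1, Tnni1, Tnnc1, with Tpm3 as the slow tropomyosin) and fast fibres (Tnnt3, Tnni2, Tnnc2, with Tpm1 as the fast tropomyosin), while Tpm2 serves both. Tnnt2 is the heart form of troponin T. Embryonic and newly regenerating skeletal fibres transiently use several of the slow and cardiac forms, and the mdx mouse is known for cycles of fibre degeneration and regeneration.

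The promoters of Tnni1 and Tnnt2 are shown because these genes, which lie close together on mouse chromosome 1, were the troponins that rose in mdx muscle. RefSeq promoters on GRCm38.p6 were matched by symbol for 8 of the 10 members, the others being Tnni2 and Tnnt3, and gave 11 promoters. The stretches below are upstream of the first annotated start, at chr1:135799171-135799420 for Tnni1 and chr1:135836084-135836314 for Tnnt2, both on the plus strand and written 5′ to 3′. Capitals mark the E-box CANNTG, the motif read by myogenic factors such as MyoD and myogenin, and the M-CAT core CATTCC, which is read by TEAD factors.
Tnni1: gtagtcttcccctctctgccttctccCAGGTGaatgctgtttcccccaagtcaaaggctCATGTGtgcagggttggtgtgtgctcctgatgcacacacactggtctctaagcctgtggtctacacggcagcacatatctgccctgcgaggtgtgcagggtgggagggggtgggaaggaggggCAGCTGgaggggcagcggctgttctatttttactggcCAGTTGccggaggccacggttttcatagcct
Tnnt2: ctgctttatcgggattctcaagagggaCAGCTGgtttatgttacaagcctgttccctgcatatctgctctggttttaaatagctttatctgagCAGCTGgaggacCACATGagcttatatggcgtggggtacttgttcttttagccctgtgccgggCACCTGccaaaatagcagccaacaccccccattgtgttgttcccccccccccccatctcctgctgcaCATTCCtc
Both stretches held 4 E-boxes, and the Tnnt2 stretch also held the M-CAT core close to its 3′ end. Searched on both strands of 250 bases upstream of each start, an E-box was present in all 11 promoters of the members, but also in 66.2% of all 32851 promoters, so its presence sets nothing apart. The M-CAT core was present in 3 of the 11 (in Tnnt2, Tnnc1 and Tpm1) and in 12.6% of all promoters. The MEF2 and CArG box motifs were found in none of the 11, and in 0.508% and 1.47% of all promoters. Such matches describe letters in a window and do not show that a factor was bound.

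The members that changed were slow forms and the cardiac troponin T, and no fast form was called different between any of the groups. Tnni1 was 5.55-fold and Tnnt2 2.17-fold higher in mdx muscle than in that of C57 mice, and the signal of a Tpm3 probe set was 1.32-fold higher. After Pip6e-PMO treatment, Tnnt2 was 1.90-fold and Tnnt1 1.73-fold lower than in untreated mdx muscle. The Tnnt2 and Tnnt1 calls were kept in 7 and 5 of the 11 omissions of a single mouse. Tnni1 and Tnnc1 had lower means too, by 3.28-fold and 2.31-fold, but did not pass the main test. Among the omissions both passed only without treated mouse 2, which lay in the mdx range. That mouse was the highest of its group for both genes, so leaving it out had to widen both differences. With all mice kept, both genes also passed with array weights, and Tnni1 with some other fit settings but not with others.

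Differences were tested with limma on the log2 signals of 14494 probe sets and a difference was called when its Benjamini-Hochberg adjusted p was under 0.05. In mdx against C57 muscle 3 of the 10 members were called, all higher, where 7.06% of all tested probe sets were called higher and 12.0% in either direction. Every mdx mouse was above every C57 mouse for 4 members (Tnni1, Tnnt2, Tnnt1 and Tpm3), as it was for 13.1% of all tested probe sets. In treated against untreated mdx muscle 2 of the 10 were called, both lower, where 3.88% of probe sets were called lower and 11.1% in either direction. Only Tnnt1 among the members had every treated mouse below every mdx mouse, a pattern held by 6.69% of probe sets. In treated against C57 muscle none of the 10 was called by limma, where 24.6% of probe sets were, and 1 member (Tpm3) had an unadjusted p under 0.05. With 10 genes these shares are coarse, and no test of them was made.

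By form, the median difference of mdx from C57 was 0.75 on the log2 scale for the 4 slow members and -0.02 for the 4 fast members, beside -0.01 for all tested probe sets. Treated minus mdx, the medians were -1.001 for the slow and 0.03 for the fast members, beside 0.02 for all. Treated minus C57, they were 0.04 and 0.01, beside 0.00 for all. This slow median lay between differences of opposite sign, 0.76 for Tnni1 and 0.255 for Tpm3 against -0.17 for Tnnt1 and -0.33 for Tnnc1. The log2 intervals before adjustment were wide, from -0.46 to 1.98 for Tnni1 and from -1.38 to 0.72 for Tnnc1. Tpm3 was read at its brightest probe set, and its chromosome 3 probe set gave -0.087. The median therefore does not show that each slow form was back at the C57 level.

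**Figure D1:**
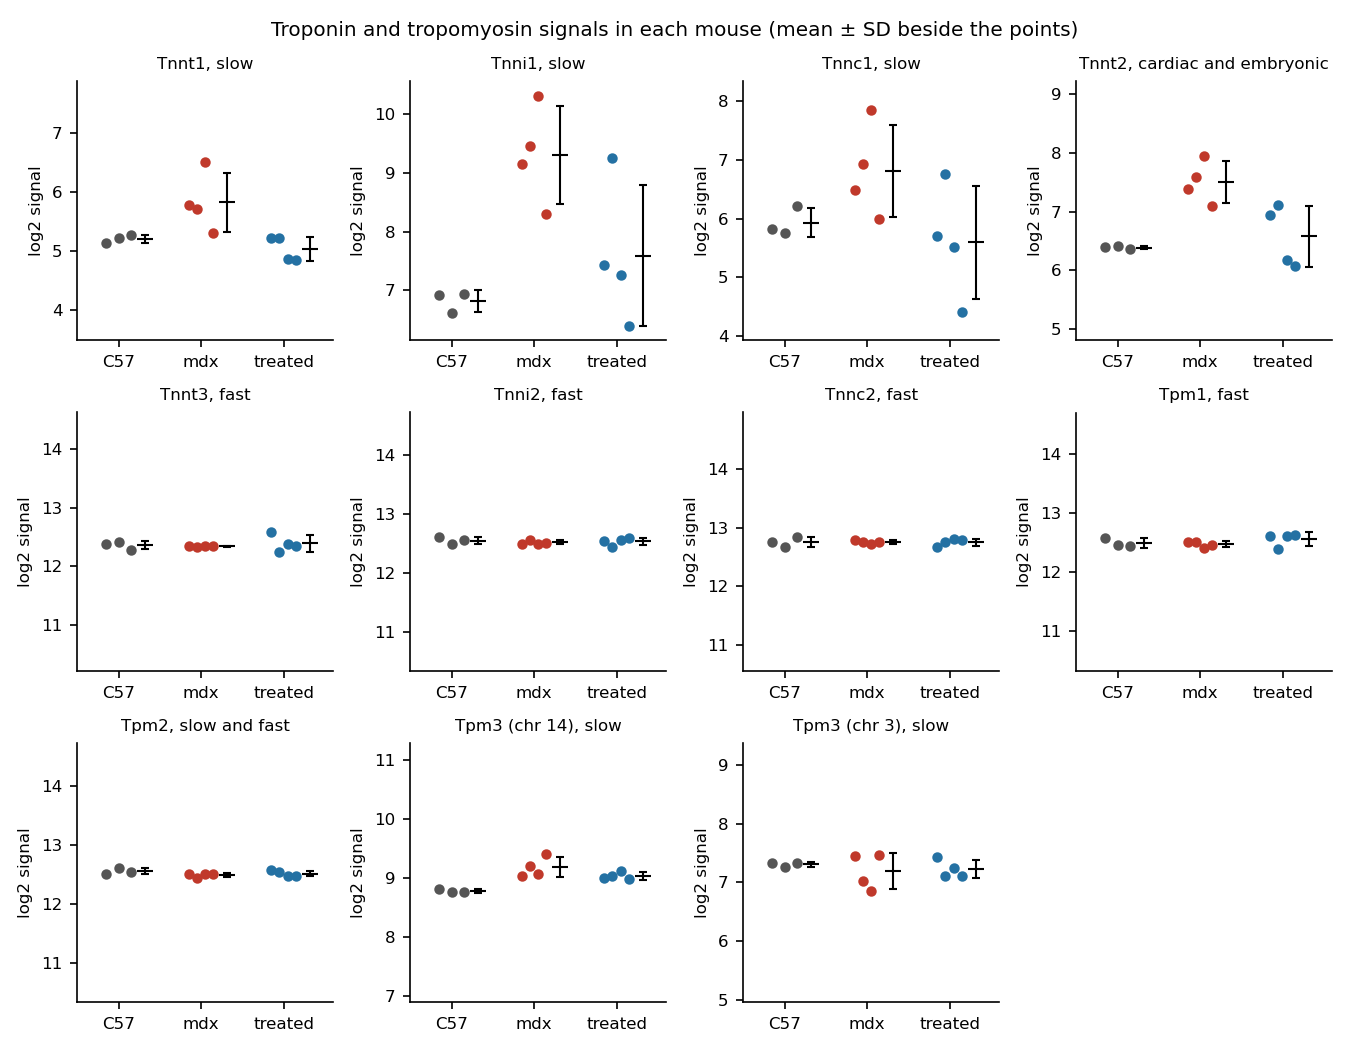
Log2 signal (vertical axes, all of the same span) of the 10 members in each of 3 C57, 4 mdx and 4 treated mice, 1 point per mouse, with the group mean ± SD beside the points and Tpm3 at 2 of its probe sets. Tnni1, Tnnc1, Tnnt2 and Tnnt1 spread widely in mdx and treated muscle, while the fast forms and Tpm2 vary little.

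Tnni1, the slow inhibitory subunit, showed the largest shift among the members. Its log2 signals were 6.93, 6.61 and 6.94 in the C57 mice, 9.15, 9.45, 10.30 and 8.30 in the mdx mice, and 7.44, 9.25, 7.26 and 6.40 in the treated mice. The mdx and C57 mice did not overlap, and among the treated mice the second lay inside the mdx range whereas the fourth lay below all C57 mice. The mdx mean exceeded the C57 mean by 2.47 (SE 0.56, limma adjusted p = 0.0132), a 5.55-fold difference with a 95% interval from 2.38 to 12.96. This call was lost when the second C57 mouse was left out (adjusted p = 0.0594). The treated mean was 1.71 below the mdx mean (log2 difference -1.71, SE 0.52, adjusted p = 0.0531). Over the 11 omissions of a single mouse that difference ranged from -2.27 to -1.32 and was called in 1, without treated mouse 2 (-2.27, SE 0.38, adjusted p = 0.0037), with adjusted p up to 0.141 in the others. Placed on a scale where the mdx mean is 0% and the C57 mean 100%, the treated mice stood at 75.2%, 2.02%, 82.5% and 117%, with their mean at 69.2%.

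Tnnt2, the cardiac and embryonic troponin T, gave log2 signals of 6.39, 6.41 and 6.36 in C57 muscle, 7.39, 7.58, 7.94 and 7.10 in mdx muscle, and 6.94, 7.11, 6.18 and 6.08 after treatment. The C57 mice were nearly identical, all mdx mice lay above them, and the treated mice split into a pair just below or at the low end of the mdx range and a pair below the C57 mice. The mdx to C57 difference of 1.12 (SE 0.25, limma adjusted p = 0.0126) corresponded to 2.17-fold with an interval from 1.48 to 3.17, and it was called whichever of the 11 mice was left out. Treated muscle was lower than mdx muscle by a log2 difference of -0.93 (SE 0.23, adjusted p = 0.0304). This call was kept in 7 of 11 omissions of a single mouse and lost without mdx mouse 2 or 3 or treated mouse 3 or 4, when adjusted p ranged from 0.0593 to 0.0869. On the mdx to C57 scale the treated mice reached 50.4%, 35.2%, 119% and 127%. Of the heart markers, the natriuretic peptide genes Nppa and Nppb and the atrial light chain Myl7 were below the minimum signal in every group, and the cardiac troponin I gene Tnni3 averaged 5.40 in C57 and 5.46 in mdx muscle (adjusted p = 0.913). Of all 6 heart markers, 3 were tested and 1 was higher in mdx muscle, Myl4, which embryonic skeletal muscle also uses. In treated against mdx muscle 2 of these 3 were lower, Tnni3 (-0.81, adjusted p = 0.0324) and Myl4 (-0.88, adjusted p = 0.0356). The mean over the list was 5.22 to 5.46 in the C57, 5.42 to 5.61 in the mdx and 4.95 to 5.34 in the treated mice.

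Tnnt1, the slow troponin T, was dim. Its log2 signals were 5.13, 5.21 and 5.27 in C57, 5.77, 5.71, 6.51 and 5.30 in mdx, and 5.21, 5.21, 4.86 and 4.84 in treated muscle, where 2 mice fell under the minimum signal of 30. All mdx mice were above all C57 and all treated mice, with the lowest mdx mouse at 5.30 beside the highest C57 mouse at 5.27. The mdx to C57 difference of 0.62 (SE 0.22) did not pass the test (limma adjusted p = 0.0962), with a log2 interval from 0.14 to 1.10 before adjustment. Treated muscle was lower than mdx muscle (difference -0.79, SE 0.20, adjusted p = 0.0330), but this call was kept in only 5 of 11 omissions of a mouse. It was lost without mdx mouse 1, 2 or 3 or without treated mouse 1, 3 or 4 (adjusted p from 0.0527 to 0.0930).

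Tnnc1, the calcium-binding subunit shared by slow skeletal muscle and heart, varied widely between mice. Its log2 signals were 5.83, 5.75 and 6.21 in C57, 6.48, 6.92, 7.84 and 6.0 in mdx, and 5.70, 6.76, 5.52 and 4.42 in treated muscle. The value of treated mouse 4 fell under the minimum signal of 30. The mdx range overlapped that of C57 through mdx mouse 4, and treated mouse 2 again lay within the mdx range. Neither the mdx to C57 difference of 0.88 (SE 0.48, limma adjusted p = 0.292) nor the treated to mdx difference of -1.21 (SE 0.45, adjusted p = 0.0919) passed. Over the 11 omissions the latter ranged from -1.60 to -0.82 and was called in 1, without treated mouse 2 (adjusted p = 0.0144), with adjusted p up to 0.227 in the others. Among the other fit settings only array weights gave a call (adjusted p = 0.0064).

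The same mice were high and low for all 4 of these genes. Mouse 3 was the highest and mouse 4 the lowest of the mdx group for Tnnt1, Tnnt2, Tnni1 and Tnnc1, and treated mouse 4 was the lowest of its group for each. Treated mouse 2 was the highest of its group for Tnnt2, Tnni1 and Tnnc1, and shared the highest Tnnt1 value with treated mouse 1. After each group's mean was subtracted, Pearson's r over the 11 mice was 0.96 between Tnni1 and Tnnc1, 0.88 between Tnnt2 and Tnnc1, 0.87 between Tnnt2 and Tnni1, and 0.73 to 0.80 between Tnnt1 and the others. These coefficients are a description, since all genes of a mouse share its array. Tnni1 and Tpm1 ran in opposite directions (r = -0.71), and so did Tnni2 and Tpm2 (r = -0.79), although within groups the SD of the fast forms and Tpm2 was at most 0.14 log2 units.

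**Figure D2:**
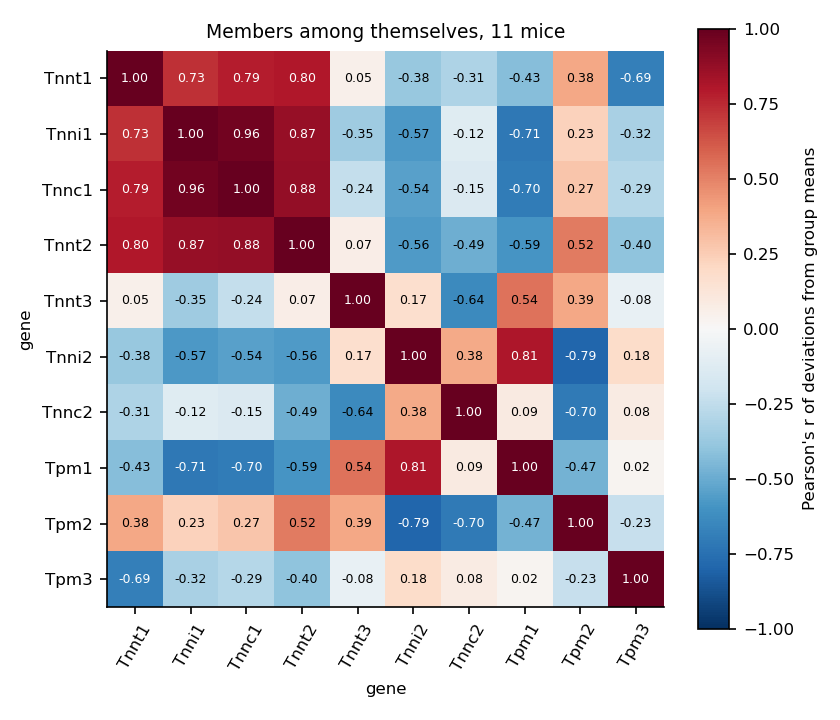
Pearson's r between members (both axes, colour scale from -1 to 1) of log2 signals after subtraction of group means, over 11 mice. The block at the upper left, with r from 0.73 to 0.96, joins the 3 slow troponins and Tnnt2, and no such block joins the fast troponins.

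No fast troponin was called in any comparison. Tnni2, the fast inhibitory subunit, read 12.61, 12.49 and 12.56 in C57, 12.50, 12.57, 12.50 and 12.52 in mdx, and 12.54, 12.45, 12.57 and 12.60 in treated muscle. Tnnt3, the fast troponin T, read 12.38, 12.41 and 12.28 in C57, 12.35, 12.33, 12.34 and 12.34 in mdx, and 12.58, 12.25, 12.38 and 12.35 in treated muscle. Tnnc2, the fast calcium-binding subunit, read 12.76, 12.67 and 12.84 in C57, 12.79, 12.75, 12.72 and 12.75 in mdx, and 12.67, 12.75, 12.81 and 12.78 in treated muscle. The groups overlapped for each of the 3 genes in every comparison. Against C57, the mdx fold was 0.979 for Tnni2 with a 95% interval from 0.866 to 1.11. For Tnnt3 the interval was 0.859 to 1.14 and for Tnnc2 0.880 to 1.13, so changes larger than these were outside the intervals while smaller ones could not be seen. These signals stood close to the top of the arrays, whose brightest probe sets reached log2 13.63 to 13.91, and compression of differences there was not tested.

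**Figure D3:**
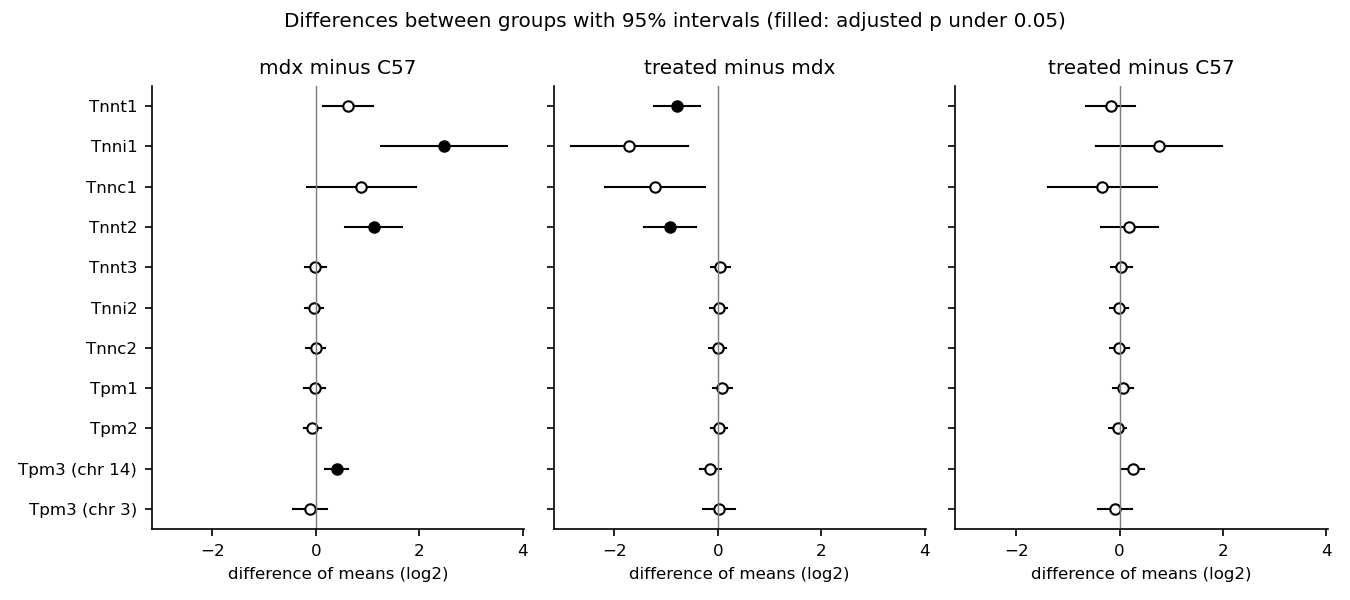
Differences of group means (horizontal axes, log2, all panels on 1 scale) with 95% intervals for the 10 members, Tpm3 at 2 probe sets, in the 3 comparisons, with filled points for an adjusted p under 0.05. The intervals of the fast forms are short and include 0, whereas those of Tnni1 and Tnnc1 are wide.

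Among the tropomyosins, Tpm1 and Tpm2 behaved like the fast troponins. Tpm1, the fast and cardiac form, averaged 12.49 ± 0.08 (SD, n = 3) in C57, 12.46 ± 0.05 (n = 4) in mdx and 12.55 ± 0.12 (n = 4) in treated muscle. Tpm2 averaged 12.55 ± 0.05, 12.49 ± 0.03 and 12.52 ± 0.05. The mdx fold against C57 had an interval from 0.856 to 1.13 for Tpm1 and from 0.848 to 1.08 for Tpm2, and neither was called in any comparison (lowest adjusted p = 0.497, Tpm1 in treated against mdx).

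Tpm3, the slow tropomyosin that non-muscle cells also use in other isoforms, had 3 probe sets that differed in behaviour. The brightest was placed on chromosome 14 and marked as cross-hybridizing in the table, and it gave 8.82, 8.76 and 8.76 in C57, 9.04, 9.21, 9.07 and 9.41 in mdx, and 9.0, 9.04, 9.12 and 8.98 in treated muscle. Its mdx mice all lay above the C57 mice, with a difference of 0.40 (SE 0.10, limma adjusted p = 0.0223), and its treated mice did too (difference 0.25, adjusted p = 0.0829). RefSeq places the Tpm3 gene on chromosome 3 and a Tpm3-related pseudogene, Tpm3-rs7, on chromosome 14. The probe set on chromosome 3, not marked as cross-hybridizing, gave 7.33, 7.26 and 7.33 in C57, 7.44, 7.02, 6.86 and 7.46 in mdx, and 7.43, 7.10, 7.24 and 7.11 in treated muscle. These groups overlapped, and the mdx to C57 difference was -0.11 (SE 0.15, limma adjusted p = 0.717 over all tested probe sets). The third, on chromosome 7 and also cross-hybridizing, had a difference of 0.17 (adjusted p = 0.273). The rise read from the brightest probe set is therefore uncertain as a statement on the Tpm3 gene, since cross-hybridizing probes cannot tell near-identical sequences apart, and its call was lost without C57 mouse 2 or 3 or mdx mouse 2 (adjusted p from 0.0578 to 0.0839).

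Slow and fast forms of a subunit were then compared within each mouse, as the log2 slow signal minus the log2 fast signal with the C57 mean set to 0. For troponin I the mdx mice stood at 2.38, 2.61, 3.53 and 1.51, and the treated mice at 0.63, 2.53, 0.42 and -0.47, whereas the C57 mice lay between -0.15 and 0.11. The mdx mean shift was 2.504 (SE 0.42, exact two-sided permutation p = 0.0286, the smallest that 3 against 4 mice can give, and 0.171 after Benjamini-Hochberg adjustment over 9 such tests). For troponin T the mdx mice stood at 0.57, 0.53, 1.32 and 0.11 and overlapped with the C57 mice, with a mean shift of 0.64 (exact permutation p = 0.0857). For troponin C they stood at 0.52, 1.00, 1.95 and 0.08 (mean shift 0.88, exact permutation p = 0.114). Treated minus mdx, the 3 shifts were -1.73, -0.84 and -1.21 for troponins I, T and C, with exact permutation p of 0.0857, 0.0571 and 0.114. None of the 9 had an adjusted p under 0.171. Because the fast signals barely varied, these shifts repeat those of the slow forms.

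**Figure D4:**
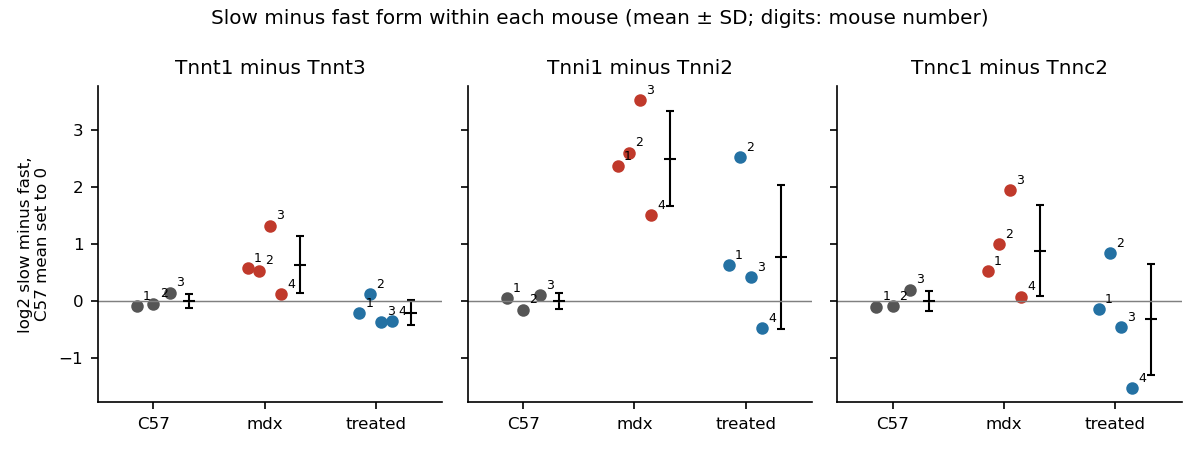
Log2 slow minus fast signal within each mouse (vertical axis, C57 mean set to 0) for troponins T, I and C, with mouse numbers beside the points and group mean ± SD. For troponin I all mdx mice lie between 1.51 and 3.53, above every C57 mouse, and treated mouse 2 lies among them at 2.53.

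In a bulk piece of muscle, fewer cells of a type and less RNA per cell cannot be told apart, and marker genes of other cell types moved with the groups. Of 10 markers of regenerating fibres, 8 were higher in the mdx than in the C57 mice. Averaged over the list, the C57 mice had log2 signals from 6.79 to 6.84, the mdx mice from 8.01 to 8.67 and the treated mice from 7.14 to 8.28. The embryonic myosin Myh3 was higher by 1.87 (limma adjusted p = 0.0086) and the myoblast fusion gene Tmem8c (myomaker) by 3.28 (adjusted p = 0.0012). Treated against mdx muscle, 1 of the 10 was lower, the embryonic light chain Myl4 (difference -0.88, adjusted p = 0.0356). Treated mouse 2, at 8.28, was the highest of its group and within the mdx range for these markers too. Correlations were taken over the 11 mice with group means removed. Tnni1 gave a median r of 0.71 with the 10 markers (0.05 for Myod1 to 0.97 for Tmem8c). The median was 0.69 for Tnnc1 (-0.03 for Myod1 to 0.92 for Chrng) and 0.64 for Tnnt2 (0.02 for Myod1 to 0.84 for Ncam1). For Tnnt1 it was 0.56 (-0.04 for Myod1 to 0.77 for Myh3). Actc1 gave 0.26, 0.34, 0.17 and 0.09 with Tnni1, Tnnc1, Tnnt2 and Tnnt1. In C57 muscle Myh3 (mean 4.25) and Chrng (4.18) were under the minimum signal of log2 4.91. Myog (5.05) and Myh8 (5.11) were near it there, which limits the coefficients of all these markers.

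Markers of mature slow fibres moved in both directions. Of the 6, the slow myosin Myh7 was below the minimum signal in all groups, the ventricular and slow light chain Myl3 was lower in mdx muscle (difference -1.67, adjusted p = 0.0005), the slow calcium pump Atp2a2 was higher (0.76, adjusted p = 0.0004), and Myl2, Casq2 and Myh7b were not called. In treated against mdx muscle, Myl2, another slow and ventricular light chain, was lower (-0.75, adjusted p = 0.0328) and Myl3 higher (0.81, adjusted p = 0.0297), and against C57 muscle both were lower (-0.97 and -0.87, adjusted p = 0.0074 and 0.0144). Averaged over the 6, the C57 mice had log2 signals from 6.67 to 6.84, the mdx mice from 6.23 to 6.62 and the treated mice from 6.26 to 6.65. With the 5 that were tested, Tnni1 correlated at a median r of 0.02 (-0.08 to 0.34), Tnnc1 at 0.06, Tnnt2 at 0.25 and Tnnt1 at 0.36 (up to 0.72 for Myl3). The medians of Tnni1 and Tnnc1 were the r of Myl2. Myl2 and Myh7b were dim, with group means near or under the minimum signal, so their coefficients say little. For the brighter Myl3, Atp2a2 and Casq2, r was 0.34, 0.34 and -0.01 with Tnni1. With Tnnc1 the same markers gave 0.43, 0.28 and 0.05. None of 8 fast-fibre markers, among them Myh4, Mylpf and Pvalb, was called in any comparison. The part of regeneration or fibre type in the troponin differences was not tested.

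**Figure D5:**
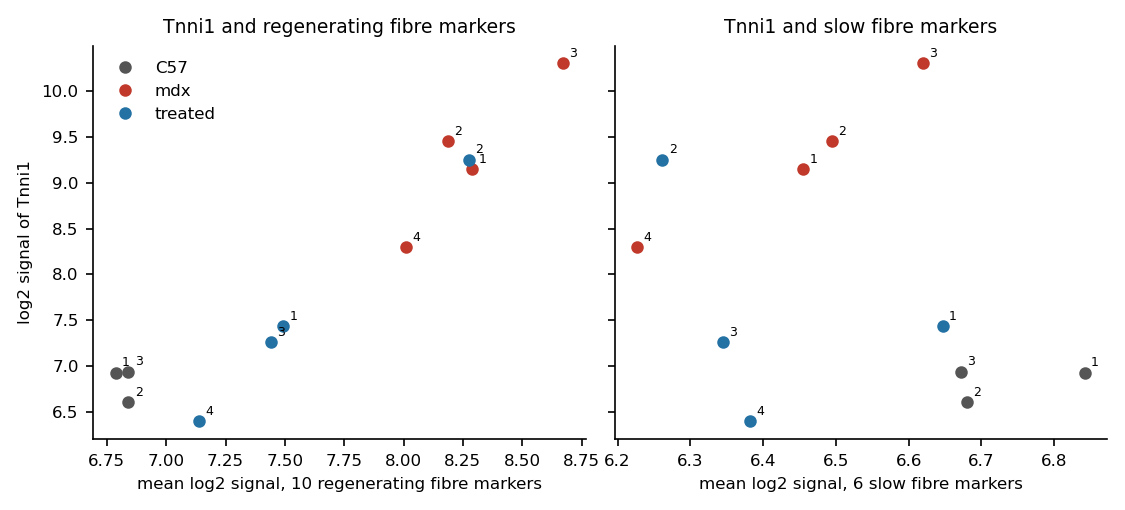
Log2 signal of Tnni1 (vertical axis) against the mean log2 signal of 10 regenerating-fibre markers (left) and of 6 slow-fibre markers (right) in 11 mice, numbered within the groups. On the left, treated mouse 2 sits with the mdx mice at a marker mean of 8.28, and on the right the C57 mice have the highest marker means, 6.67 to 6.84, at low Tnni1.

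The genes whose deviations from the group means were most like those of Tnni1, among 11834 genes, were Tmem8c (r = 0.97), Msln (mesothelin, r = 0.97) and Chrng (the fetal acetylcholine receptor subunit, r = 0.96). For Tnnt2 they were Msln, Fam178a and the potassium channel gene Kcng4, each with r = 0.91. In the group means, Tmem8c and Chrng were higher in mdx muscle by 3.28 and 2.24 (limma adjusted p = 0.0012 and 0.0063). Kcng4 was lower in mdx muscle by a log2 difference of -1.15 (adjusted p = 4.7e-05), where Tnnt2 was higher, and like Tnnt2 it was lower in treated than in mdx muscle (-0.64, adjusted p = 0.0079).

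Of 30 other genes of the thin filament and Z-disc, 29 were tested. In mdx against C57 muscle 2 were higher, the cardiac actin Actc1 (difference 1.40, limma adjusted p = 0.0018) and the actin-binding repeat protein gene Xirp1 (0.82, adjusted p = 0.0046), 1 was lower, the smooth muscle leiomodin Lmod1 (-0.82, adjusted p = 0.0221), and 26 were not called. Their median difference was 0.13, and skeletal actin Acta1 was at 13.25 in C57 and 13.28 in mdx muscle. Treated against mdx muscle, the actin-capping tropomodulin Tmod3 was higher (0.73, adjusted p = 0.0099) and Tnni3 lower (-0.81, adjusted p = 0.0324), with 27 not called. The treated mean of Tnni3 was under the minimum signal. Actc1 differed by -0.29 in that comparison (adjusted p = 0.352) and remained 1.11 above C57 in treated muscle (adjusted p = 0.0049). Treated against C57 muscle, 12 of the 29 were higher and 2 lower, beside 24.6% of all tested probe sets called in either direction.

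Genes beside the troponins were checked because the fast and slow subunits lie in pairs. Lad1, between Tnni1 and Tnnt2, was below the minimum signal in all groups. Lsp1, a leukocyte gene between Tnni2 and Tnnt3 on chromosome 7, was higher in mdx muscle by 1.02 (limma adjusted p = 0.0003) while neither fast troponin beside it was called. No protein-coding gene lies between Tnni3 and Tnnt1.

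Across the arrays the median signal was 27.5 to 28.6, and the 7 skeletal muscle markers averaged 12.59 to 12.70 in every mouse, with none called in any comparison. All 8 macrophage markers, 3 of 6 fibroblast markers and none of 3 blood markers were higher in mdx than in C57 muscle, whereas 3 of 7 smooth muscle and 3 of 5 tested nerve markers were lower. In treated against mdx muscle 2 of the 8 macrophage markers were lower, Cd68 (-1.04, adjusted p = 0.0245) and Tyrobp (-1.12, adjusted p = 0.0220), and no fibroblast, smooth muscle, nerve or blood marker was called. No adipocyte marker differed between mdx and C57, and 3 of 4 tested were lower in treated than in mdx muscle. Dmd itself, read by 1 probe set, averaged 5.82 ± 0.05 in C57, 5.28 ± 0.50 in mdx and 5.80 ± 0.37 in treated muscle. Neither the mdx to C57 difference of -0.55 (limma adjusted p = 0.198) nor the treated to mdx difference of 0.525 (adjusted p = 0.142) was called. As these differences were not resolved, the Dmd mRNA level is no check of the labels.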

How the data were processed

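Per the labels, RNA from TA cryosections was hybridised to Affymetrix Mouse Gene ST arrays. The authors made the intensity values in Affymetrix Expression Console by the RMA-sketch procedure (background correction, sketch-quantile scaling, median polish summary), and the deposited numbers are linear, not logged. The table still holds the dim probe sets (all groups below 30) whose removal the methods state, and the positions in it name no genome build, so only chromosomes are given. The number of arrays, 3 or 4 per group, limits the precision.

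Log2 was taken of the deposited intensities, which lay on steps of 0.01. Probe sets whose group mean reached 30 in any group (14494 of 28350) were fitted with limma 3.58.1 in R 4.3.3, with 3 group means over all 11 mice (lmFit, eBayes), and p-values were adjusted by Benjamini-Hochberg over all of them. The supplementary methods used a t-test, which was run as an alternative. The fit was tested on simulated data. Where a gene had more than 1 probe set, the brightest stood for it. All 10 members, other thin filament genes called in mdx minus C57 or treated minus mdx, and the 3 genes most alike to Tnni1 and to Tnnt2 were named, and those of Tnni2 are not reported here. Slow minus fast differences were tested by exact permutation in Python 3.11.15 with SciPy 1.17.1. Each mouse was left out in turn, and the filter, prior, array weights, normalization, probe set rule, threshold and block were varied. The members, gene lists, marker lists and tests were chosen with earlier results of these data known. Each array is a separate mouse, so p-values cover the spread between mice.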

Additional observations from a re-analysis of the deposited data

Results flagged for a closer look

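In 22 groups of 4 mice, 2 held a mouse far from the others by Dixon's criterion, where chance gives about 1 in 20. For Tpm1, treated mouse 2 had a log2 signal of 12.38 against 12.60 to 12.63 in the other treated mice, a gap of 0.88 of the whole range. For Tpm2, mdx mouse 2 had 12.44 against 12.50 to 12.51, a gap of 0.857 of the range.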

How the results depend on the processing

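Limits: 3 or 4 mice a group, values near the top of the arrays for the fast forms, and probe sets of Tpm3 that share sequence. Signals of Tnnt1, and of Tnnc1 in treated mouse 4, were near or under the minimum. The number of members called was 3 in mdx minus C57, 2 in treated minus mdx and 0 in treated minus C57. The methods' t-test with Benjamini-Hochberg adjustment gave 0, 0 and 1 (Tpm3), and 3, 2 and 1 at an unadjusted p under 0.05. Treated minus mdx gave 0 with only the 2 groups in the fit, 4 with array weights and 1 with a minimum signal of 100, which left Tnnt1 untested. It gave 3 (Tnnt1, Tnnt2 and Tnni1) with arrays centred on their median and with a trended robust prior. The same 3 passed at an unadjusted limma p under 0.01 with a 1.5-fold change. Array weights gave 1 (Tpm3) in treated minus C57. Leaving out single mice gave 1 to 4 in mdx minus C57, with 1 left without C57 mouse 2. In treated minus mdx it gave 0 to 4, with 0 without mdx mouse 2 or 3 or treated mouse 3 or 4, 1 without mdx mouse 1 or treated mouse 1, and 4 without treated mouse 2. The replicate block gave 2 (Tnni1 and Tnnt2), 2 (the same genes) and 0, while mice of 1 number shared only the number (r of deviations from -0.297 to 0.153).

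Directions turned for few members. Tpm3 read at its chromosome 3 probe set, an alternative chosen after seeing the data, gave -0.11, 0.025 and -0.087 in the 3 comparisons. In treated minus C57, Tnnt2 was -0.13 and Tnni2 0.048 and Tnnc2 0.076 with array weights, Tnnt3 -0.013 after centring arrays on their median, and Tnni2 0.060 and Tpm2 0.034 after repeated quantile normalization. Leaving out single mice gave ranges across 0 for Tnnt3 (-0.055 to 0.010 in mdx minus C57, -0.013 to 0.097 in treated minus mdx, -0.030 to 0.080 in treated minus C57), Tpm1 (-0.055 to 0.020 in mdx minus C57), Tnnc2 (-0.048 to 0.038 in mdx minus C57 and in treated minus C57, -0.019 to 0.028 in treated minus mdx), Tnni2 (-0.0025 to 0.048 in treated minus mdx, -0.045 to 0.017 in treated minus C57) and Tnnc1 (-0.717 to 0.063) in treated minus C57, and the Tnnc1 minus Tnnc2 difference (-0.713 to 0.077 in treated minus C57). None of these had been called, apart from Tpm3 in mdx minus C57. The causes were not tested.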
